A study of Mus musculus with 8 samples.

Results

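The immediate early genes followed here were Fos, Fosb, Junb, Egr1, Egr2, Egr3, Arc, Nr4a1, Nr4a2 and Nr4a3. They are 10 of the 13840 genes that the array's platform annotation names by a probe with exactly 1 gene symbol, among 33012 probes. Each of the 10 had 1 such probe, and it was taken by symbol, without regard to its signal. The study profiled hypothalamus and liver of male mice to look for candidate genes of a nutrient intake locus on chromosome 17, and none of the 10 genes lies on that chromosome in the RefSeq gene table.

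The 8 groups were formed by 2 tissues, 2 strains and 2 diets. The congenic mice, B6.CAST-17, carry a homozygous CAST segment of chromosome 17 on a C57BL/6J background, and the other strain was C57BL/6J itself, called B6. The 2-choice mice could choose for 24 h between a carbohydrate/protein diet and a fat/protein diet, both made up of 22% protein and 78% of the named macronutrient, while the chow mice were fed chow. Per the labels, 20 to 25 mice per strain had first been tested for 10 days, those most divergent in intake were kept and went back to chow for 6 weeks. Killing at 4 h before lights out is stated for the 2-choice mice, and the time for the chow mice is not given in the sources used here. Every group was 1 pool of RNA from 6 mice on 1 single-channel Applied Biosystems array, so the spread between mice within a group was not measured. The error of each test therefore comes from how far the matched pairs of pools disagreed.

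Immediate early genes are transcribed within minutes of a stimulus without new protein synthesis, mainly through factors already bound at their promoters, such as CREB and SRF with its partners. Fos, Fosb and Junb encode subunits of the AP-1 transcription factor, Egr1 to Egr3 encode zinc finger transcription factors, Arc encodes a postsynaptic protein that drives removal of AMPA receptors, and Nr4a1 to Nr4a3 encode orphan nuclear receptors. In hypothalamus their transcripts are widely read as marks of recent neuronal activity, including that evoked by feeding, and in liver several respond to hormones and to handling.

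The proximal promoters of Fos, Nr4a1 and Nr4a2, the genes that passed between the tissues, and of Nr4a3, the third Nr4a gene, are shown because they share a short CREB-type motif. RefSeq promoter windows (GRCm38.p6) were matched for 7 of the 10 genes, namely Fos, Fosb, Junb, Egr2, Nr4a1, Nr4a2 and Nr4a3. The 250 bases before each start run 5′ to 3′ on the gene's own strand, and capitals mark TGACG or its reverse complement CGTCA, the core motif of the cAMP response element. Fos lies at chr12:85473640-85473889 (plus strand), Nr4a1 at chr15:101266596-101266845 (plus), Nr4a2 at chr2:57124004-57124253 (minus) and Nr4a3 at chr4:48045055-48045304 (plus).
Fos promoter: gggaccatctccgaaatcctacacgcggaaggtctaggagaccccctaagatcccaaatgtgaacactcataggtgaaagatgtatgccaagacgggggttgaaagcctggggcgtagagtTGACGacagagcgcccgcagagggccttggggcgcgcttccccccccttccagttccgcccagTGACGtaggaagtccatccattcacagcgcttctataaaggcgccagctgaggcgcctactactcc
Nr4a1 promoter: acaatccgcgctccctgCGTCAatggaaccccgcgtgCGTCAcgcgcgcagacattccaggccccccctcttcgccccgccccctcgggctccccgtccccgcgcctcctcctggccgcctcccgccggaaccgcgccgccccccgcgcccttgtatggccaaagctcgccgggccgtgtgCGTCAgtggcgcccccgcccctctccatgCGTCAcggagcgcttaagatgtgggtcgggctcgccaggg
Nr4a2 promoter: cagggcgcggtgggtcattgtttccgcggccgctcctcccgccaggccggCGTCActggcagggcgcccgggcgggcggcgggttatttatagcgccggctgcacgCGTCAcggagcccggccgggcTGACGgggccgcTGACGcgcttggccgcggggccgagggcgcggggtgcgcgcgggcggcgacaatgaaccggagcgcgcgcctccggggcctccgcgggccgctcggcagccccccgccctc
Nr4a3 promoter: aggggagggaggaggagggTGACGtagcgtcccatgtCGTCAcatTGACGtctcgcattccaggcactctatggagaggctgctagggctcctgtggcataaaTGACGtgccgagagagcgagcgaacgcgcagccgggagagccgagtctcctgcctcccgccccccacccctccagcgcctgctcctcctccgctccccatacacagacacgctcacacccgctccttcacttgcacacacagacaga

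The core motif TGACG, on either strand of a window from 250 bases before to 50 after the start, was present in 7 of the 7 matched genes, against 23% of 27025 genes in the table. In Fos the motif began 129 and 66 bases before the start. In Nr4a1 it began at 233, 213, 69 and 40 bases before the start, and in Nr4a2 at 200, 144, 123 and 111. In Nr4a3 it began at 231, 213, 205 and 147 bases before the start. The core also lies inside the full element TGACGTCA, which 0 of the 7 genes held, against 2.03% of all genes. The CArG box bound by SRF, CC and GG around 6 A or T bases, was matched in Egr2 alone, 1 of the 7 against 1.81% of all genes. Sequence outside these windows was not searched, and Egr1, Egr3 and Arc had no window. The AP-1 motif TGAGTCA (5.95% of all genes) and the EGR motif GCGTGGGCG (0.707%) were matched in 0 of the 7. The stretches printed above are rich in G and C, from 58.4% in Fos to 80% in Nr4a2, and the matches describe letters, not occupied sites.

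The deposited values were linear probe intensities, used here as log2. In the deposited table the 2 strains of a tissue and diet shared 1 distribution, while the median intensity was 1337.5 on the hypothalamus 2-choice arrays against 559.64 on the hypothalamus chow arrays. Before rescaling, 85.1% of hypothalamus probes were higher with 2-choice, with a median difference of 1.34 on the log2 scale, against 45.9% and -0.057 in liver. Diet and the authors' scaling set therefore cannot be told apart in hypothalamus. Within a tissue, values below are log2 intensities quantile normalized over its 4 arrays. A gene entered a test where its mean was at or above the 40th percentile of all probes, 9.26 in hypothalamus and 9.04 in liver. In hypothalamus 9 of the 10 genes entered, without Egr2, and in liver 8 entered, without Fos and Egr2. The tissue labels fit their markers, with 7 neuron markers summing to between 19.32 and 19.54 on the log2 scale in hypothalamus, against 12.92 to 13.02 in liver. The 5 hepatocyte markers summed to between 11.41 and 12.65 in hypothalamus, highest on the congenic 2-choice array, against 22.34 to 22.82 in liver.

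The strain labels were set against 4 genes of chromosome 17, chosen with their differences in these data known. Decr2, a peroxisomal reductase gene, had congenic minus B6 differences of -3.26 in hypothalamus 2-choice, -2.32 in liver 2-choice and -2.63 in liver chow, but 1.38 in hypothalamus chow. Cyp4f14, Agpat1 and Glo1 also had the opposite sign in the hypothalamus chow pair from the other 3 pairs. The strains of the hypothalamus chow arrays are therefore given only as labelled. Which of these 2 arrays is which strain does not enter the mean diet differences in hypothalamus. It does enter the values within a strain and the pairing of the tissues. It also enters the error, and so the p values, of the diet and strain tests in both tissues and of the tissue test.

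**Figure D1:**
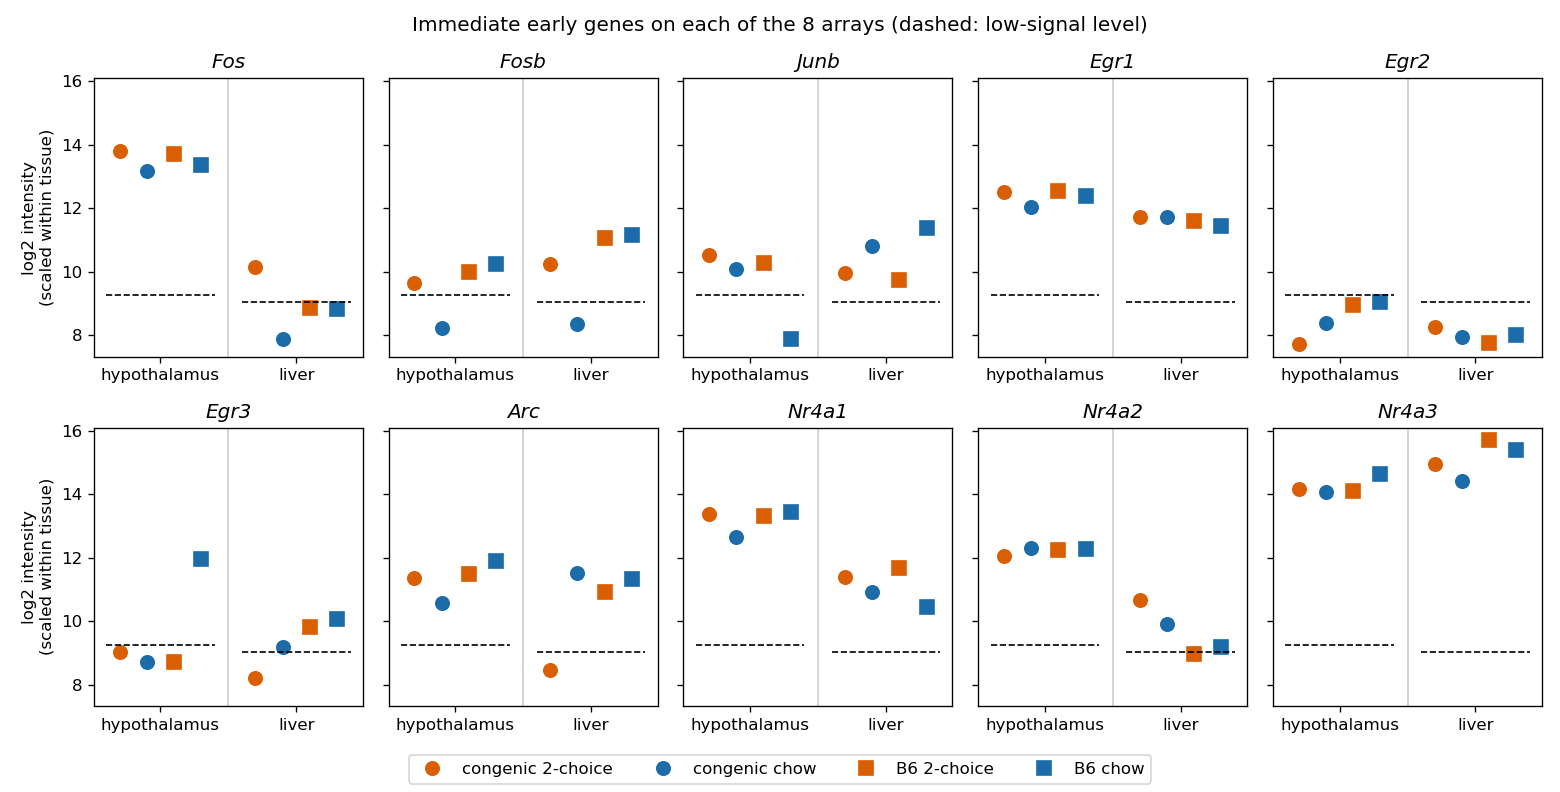
Log2 intensity, quantile normalized within each tissue, of the 10 immediate early genes on every array; each point is 1 pool of 6 mice. Fos has hypothalamus values from 13.18 to 13.80 and liver values from 7.90 to 10.16, while the 4 Egr1 values of each tissue lie within a narrow range.

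Between the tissues, Fos, Nr4a1 and Nr4a2 were higher in hypothalamus than in liver, and the other 6 genes tested did not pass. For this comparison all 8 arrays were quantile normalized together and the tissues were paired by strain and diet, in the order congenic 2-choice, congenic chow, B6 2-choice and B6 chow. The 3 genes that passed compare with 25% of 19807 probes called higher in hypothalamus, and 0 of the 9 genes tested were called lower, against 24.1% of probes. In either direction 3 of 9 compares with 49.1% of probes. The median difference of the 9 genes was 0.51, against -0.041 over all probes tested. Fewer cells of a type and less RNA per cell cannot be told apart in these pools.

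Fos, an AP-1 subunit, had log2 intensities of 13.93, 13.23, 13.84 and 13.46 in hypothalamus, against 10.34, 7.91, 8.94 and 8.89 in liver. The lowest hypothalamus pool lay above the highest liver pool, and 3 of the 4 liver values were under the low-signal level of 9.24 on this scale, so the gene entered the test through hypothalamus. The difference was 4.59 ± 0.39 (SE, 4 pairs, limma adjusted p = 3.65e-06), and within pairs it was 3.59, 5.32, 4.91 and 4.56. Its size depends on that low liver signal, and with liver values under the level raised to it, a setting chosen after seeing the data, the difference was 4.10.

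Nr4a2 (Nurr1), which dopamine neurons of the midbrain need to form, had 11.94, 12.24, 12.16 and 12.19 in hypothalamus, against 10.83, 10.10, 9.06 and 9.32 in liver. The hypothalamus pools spanned a narrow range and the liver pools a wider one, with both congenic livers above both B6 livers. The difference was 2.31 ± 0.44 (SE, limma adjusted p = 0.00133), and it ran from 1.12 in the congenic 2-choice pair to 3.11 in the B6 2-choice pair. Nr4a1 (Nur77), a receptor that promotes glucose production in mouse liver, had 13.46, 12.64, 13.37 and 13.51 in hypothalamus, against 11.52, 11.09, 11.79 and 10.63 in liver. Its groups did not overlap either. The difference was 1.99 ± 0.31 (SE, limma adjusted p = 0.000342).

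Nr4a3 (NOR-1) had a difference of -0.42 ± 0.21 (SE, limma adjusted p = 0.132), with 14.33, 14.24, 14.28 and 14.90 in hypothalamus and 14.72, 14.24, 15.37 and 15.10 in liver. So among the Nr4a genes, Nr4a1 and Nr4a2 passed with a higher hypothalamus level and Nr4a3 did not pass. Egr1 was higher in hypothalamus in all 4 pairs, by 0.12 to 0.79, and Fosb was lower in all 4, with differences of -0.16 to -1.41. With the strain labels of the hypothalamus chow arrays exchanged, Egr1 would stay higher in all 4. Fosb would then be higher in the congenic chow pair, at 10.07 against 8.37 in liver. Neither passed, with differences of 0.57 ± 0.29 for Egr1 (limma adjusted p = 0.127) and -0.93 ± 0.46 for Fosb (limma adjusted p = 0.119). Of all probes, 28.7% were higher in hypothalamus in all 4 pairs and 29.6% lower. Junb, Arc and Egr3 had pairs of both signs and differences of -1.08 ± 0.65, 0.51 ± 0.58 and 0.10 ± 0.56 (SE, limma adjusted p = 0.198, 0.505 and 0.898). Egr2, a factor that myelinating Schwann cells need, was under the low-signal level of its tissue on all 8 arrays, at 7.73 to 9.06 in hypothalamus and 7.76 to 8.28 in liver after scaling within the tissue, and was not tested.

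**Figure D2:**
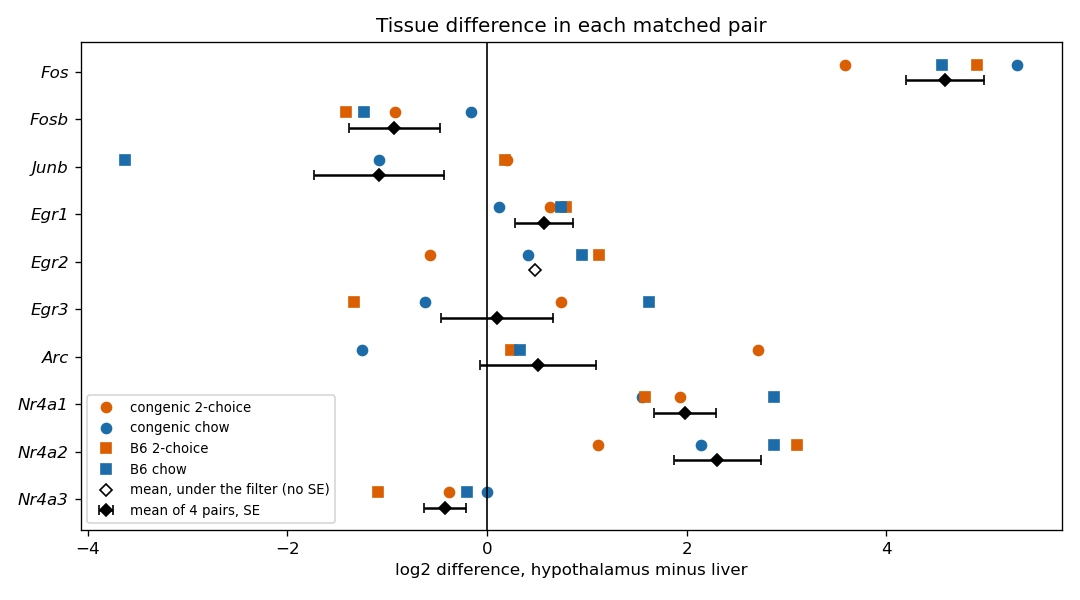
Hypothalamus minus liver difference in log2 intensity, all 8 arrays quantile normalized together, for each of the 4 pairs of pools of the same strain and diet. All Fos pairs lie between 3.59 and 5.32 and all Nr4a2 pairs between 1.12 and 3.11, whereas Arc runs from -1.26 to 2.72 and Junb from -3.63 to 0.20.

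The diet comparison in hypothalamus asks whether the genes differed between mice given 24 h of diet choice and mice on chow. None of the 9 genes tested passed with limma, against 97 of 19807 probes called (0.49%) and 4143 probes with an unadjusted p under 0.05. Of the 9 genes, 0 had an unadjusted p under 0.05. Fos, Junb and Egr1 were higher with 2-choice in both strains, 3 of 9 against 33.6% of probes, and for all 3 both 2-choice pools lay above both chow pools, against 29.2% of probes. Nr4a2 was lower in both strains and its groups did not overlap, 1 of 9 against 29.7% lower in both and 24.8% without overlap. The other 5 genes went opposite ways in the 2 strains. The median of the 9 genes was 0.29, against 0.067 over all probes tested.

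Fos had log2 intensities of 13.80 in congenic and 13.72 in B6 pools with 2-choice, against 13.18 in congenic and 13.37 in B6 pools on chow. The mean difference of 0.49 ± 0.57 (SE, limma adjusted p = 0.662) was smaller than its error. Egr1 had 12.52 (congenic) and 12.55 (B6) with 2-choice, against 12.04 (congenic) and 12.38 (B6) on chow, a difference of 0.33 ± 0.33 (SE, limma adjusted p = 0.597). For both genes the 2-choice pools were close to each other and the congenic chow pool was the lowest of the 4.

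Junb, the AP-1 partner that restrains c-Jun, had 10.52 (congenic) and 10.28 (B6) with 2-choice, against 10.08 (congenic) and 7.90 (B6) on chow. One pool, B6 chow, stood at -2.39 from the median of the other three, under the low-signal level, and the difference of 1.41 ± 0.69 (SE, limma adjusted p = 0.284) became 0.49 without it and 0.73 with it raised to the level. Egr3 had 9.04 (congenic) and 8.71 (B6) with 2-choice, against 8.72 (congenic) and 11.96 (B6) on chow. Here the same B6 chow pool was 3.24 above the median of the rest, and the mean difference was -1.47 ± 0.87 (SE, limma adjusted p = 0.37). The other 3 pools were under the low-signal level, so Egr3 entered the test through the B6 chow pool alone and was not tested without it. With the 3 values raised to the level the difference was -1.35.

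Fosb had 9.66 (congenic) and 9.99 (B6) with 2-choice, against 8.24 (congenic) and 10.25 (B6) on chow. Arc had 11.37 (congenic) and 11.47 (B6) with 2-choice, against 10.56 (congenic) and 11.89 (B6) on chow. In both genes the difference was positive in the congenic pair, 1.42 for Fosb and 0.81 for Arc, and negative in the B6 pair, -0.27 for Fosb and -0.42 for Arc. These signs take the strains of the 2 chow arrays as labelled, and with those labels exchanged they would reverse in both genes. Nr4a1 had 13.37 (congenic) and 13.30 (B6) with 2-choice, against 12.66 (congenic) and 13.42 (B6) on chow. Nr4a2 had 12.04 (congenic) and 12.23 (B6) with 2-choice, against 12.31 (congenic) and 12.26 (B6) on chow. Nr4a3 had 14.16 (congenic) and 14.11 (B6) with 2-choice, against 14.07 (congenic) and 14.65 (B6) on chow. The 3 Nr4a genes thus stayed within 0.71 in every pair, and the limma adjusted p values of these 5 genes ran from 0.553 to 0.896. The congenic chow pool was the lowest of the 4 hypothalamus pools for Fos, Fosb, Egr1, Arc and Nr4a1, standing between -1.75 (Fosb) and -0.48 (Egr1) from the median of the rest. It was also the lowest for Nr4a3, at 14.07 next to 14.11 in the B6 2-choice pool. The share of all probes that were lowest in this pool was not counted, and its strain is given only as labelled.

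**Figure D3:**
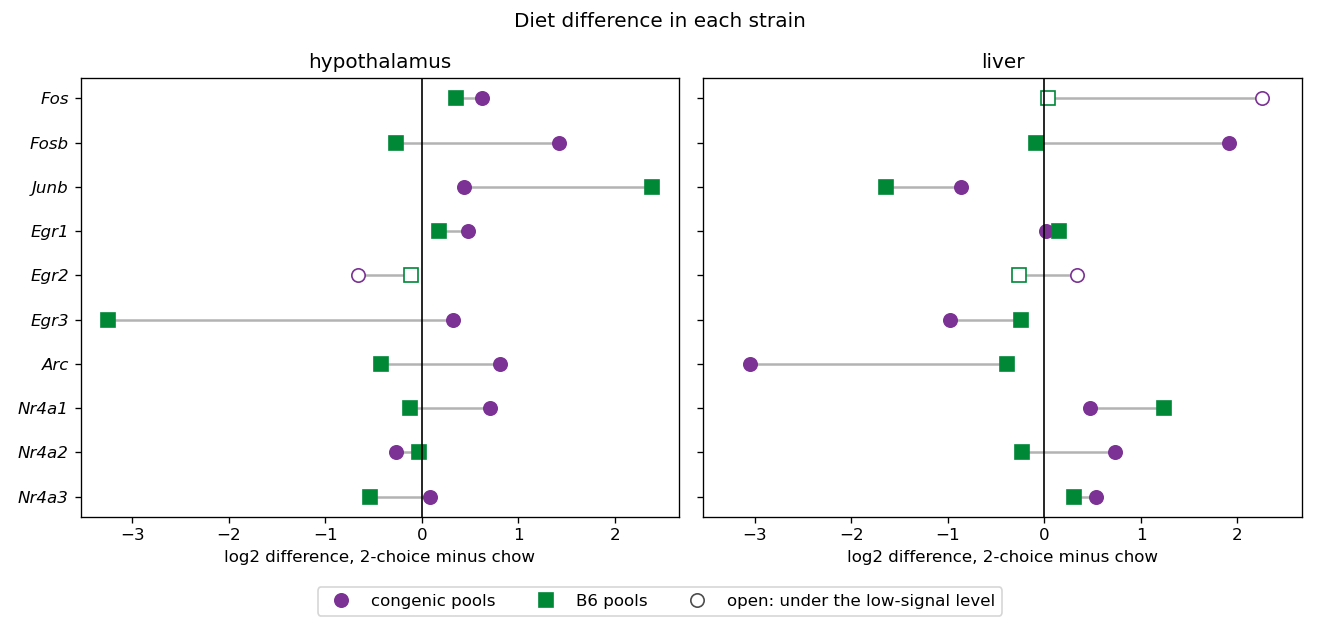
2-choice minus chow difference in log2 intensity of the 10 genes in each strain and tissue, with open symbols for genes under the low-signal level. In hypothalamus Junb reaches 2.39 and Egr3 -3.25 in the pair labelled B6, and in liver Arc reaches -3.05 and Fos 2.25 in the congenic pair.

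The scaling decided which genes passed in hypothalamus. With the deposited values not rescaled, 8 of the 9 genes were called higher with 2-choice, against 77.6% of all probes called higher. On that scale Fos differed by 2.72 and Egr1 by 2.61, against a median of 2.05 over all probes tested, and Egr3 alone was not called at -0.49. With each array centred on its median, Egr1 (1.36), Nr4a1 (1.29) and Nr4a3 (0.69) were called higher, 3 of 9 against 36.2% of probes. The median over all probes was then 0.79. Nr4a2 and Nr4a3 changed sign with the scaling, from -0.15 and -0.23 after quantile normalization over the tissue to 0.87 and 0.69 after centring. With quantile normalization over all 8 arrays none of the 9 passed (limma adjusted p of 0.304 or more, 202 probes called).

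**Figure D4:**
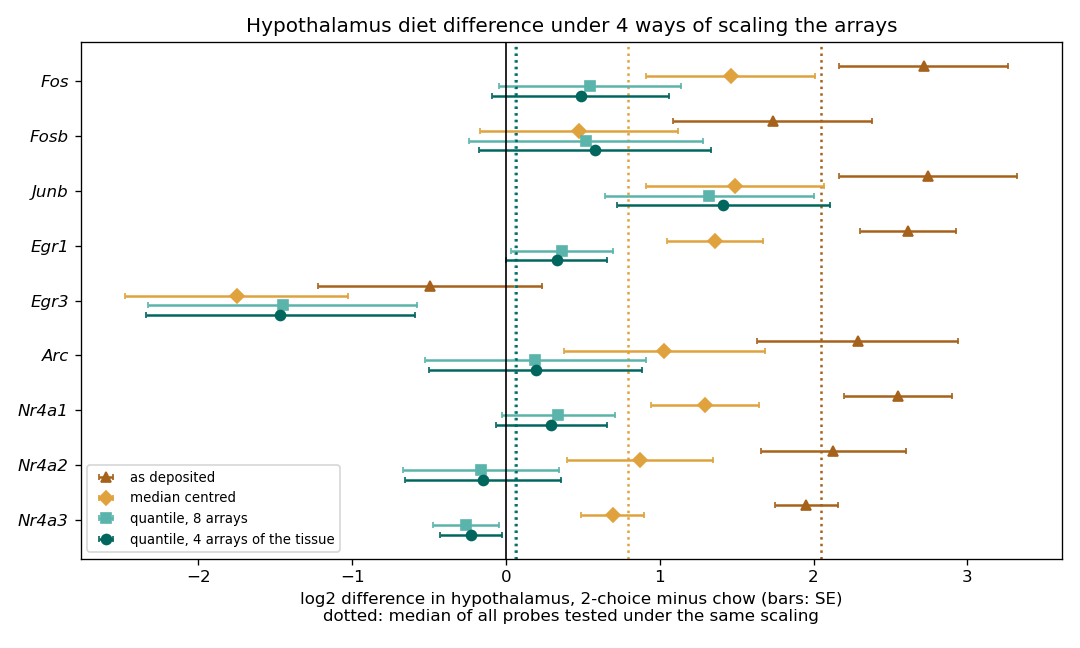
2-choice minus chow difference in hypothalamus of the 9 genes tested, as the mean over both strains in log2 intensity, under 4 scalings of the same arrays; bars are the SE and dotted lines give the median of all probes tested under each scaling. Fos lies at 2.72 as deposited and at 0.49 after quantile normalization, and Egr3 lies below 0 under all 4.

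Markers of other cells differed with diet in the same hypothalamus arrays. The 5 anterior pituitary markers measured summed to 13.93 (congenic) and 15.27 (B6) on the log2 scale with 2-choice, against 11.70 (congenic) and 12.09 (B6) on chow, and 3 of the 5 were higher in both strains. Lhb was lower in both strains, at 9.96 (congenic) and 9.78 (B6) with 2-choice, against 10.40 (congenic) and 10.21 (B6) on chow. Tshb went opposite ways in the 2 strains. All 5 were over the low-signal level on the 2-choice arrays, against 2 of the 5 on the chow arrays. Gh had 12.24 (congenic) and 14.31 (B6) with 2-choice, against 8.74 (congenic) and 8.28 (B6) on chow, a called difference of 4.77 ± 0.76 (SE, limma adjusted p = 0.0443). Both Gh chow values were under the low-signal level, so Gh entered the test through its 2-choice values. Against that level the difference was at least 4.02. All 4 oligodendrocyte markers were higher with 2-choice in both strains, with sums of 17.65 (congenic) and 17.99 (B6) against 17.08 (congenic) and 16.83 (B6) on chow, and none was called (lowest limma adjusted p 0.154). The 7 neuron markers summed to 19.54 (congenic) and 19.51 (B6) with 2-choice, against 19.32 (congenic) and 19.34 (B6) on chow. The sum hides members that differ. Of the 6 over the low-signal level, 2 were higher in both strains, 1 was lower and 3 were split. Syt1 was the lower one, at -1.07 ± 0.20 (SE, limma adjusted p = 0.0566), and Snap25 averaged under the level. Hspd1, a mitochondrial chaperonin on the heat shock and handling list, was called higher by 1.07 ± 0.16 (SE, limma adjusted p = 0.0329). It was the 1 gene called of the 6 on that list over the low-signal level. Of these, 4 were higher in both strains, 1 (Dnajb1) was lower and 1 (Bag3) was split. The part of these markers in the values of the immediate early genes was not tested.

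In liver no gene passed for diet, and limma called 0 of 19807 probes (0%, 1731 with an unadjusted p under 0.05). Of the 8 genes tested, 2 had an unadjusted p under 0.05, Arc and Nr4a1. Egr1, Nr4a1 and Nr4a3 were higher with 2-choice in both strains, 3 of 8 against 29.3% of probes, and Junb, Egr3 and Arc were lower in both, 3 of 8 against 30.9%. Nr4a1 was above without overlap, 1 of 8 against 19.6% of probes, and Junb and Arc were below without overlap, 2 of 8 against 21.6%. The median of the 8 genes was 0.17, against -0.011 over all probes.

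Nr4a1 had log2 intensities of 11.39 (congenic) and 11.69 (B6) with 2-choice, against 10.93 (congenic) and 10.45 (B6) on chow, a difference of 0.85 ± 0.36 (SE, limma adjusted p = 0.564). Junb had 9.95 (congenic) and 9.75 (B6) with 2-choice, against 10.82 (congenic) and 11.39 (B6) on chow, a difference of -1.25 ± 0.69 (SE, limma adjusted p = 0.639). Both genes kept their direction in the 2 strains without passing the test. Arc had 8.46 (congenic) and 10.93 (B6) with 2-choice, against 11.51 (congenic) and 11.32 (B6) on chow. The congenic 2-choice pool stood at -2.86 from the median of the rest, and the difference of -1.72 ± 0.70 (SE, limma adjusted p = 0.552) became -0.39 without it. Arc, a gene best known from neurons, thus had liver intensities within the range of its hypothalamus ones on 3 of 4 arrays, and the probe's specificity was not tested.

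Fos in liver had 10.16 (congenic) and 8.87 (B6) with 2-choice, against 7.90 (congenic) and 8.83 (B6) on chow. The congenic 2-choice pool was 1.33 above the median of the rest, and with the mean under the low-signal level no test was made. Fosb had 10.26 (congenic) and 11.07 (B6) with 2-choice, against 8.35 (congenic) and 11.16 (B6) on chow, so the congenic pair differed by 1.91 and the B6 pair by -0.08. Egr1 held within 0.15 in both pairs, at 11.74 (congenic) and 11.60 (B6) with 2-choice, against 11.72 (congenic) and 11.45 (B6) on chow. Egr3, Nr4a2 and Nr4a3 had differences of -0.61 ± 0.86, 0.25 ± 0.51 and 0.42 ± 0.20 (SE, limma adjusted p = 0.89, 0.927 and 0.6).

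Of the 5 macrophage markers measured in the liver pools, 4 were lower with 2-choice in both strains, and the 5 summed to 15.55 (congenic) and 15.81 (B6) with 2-choice, against 17.08 (congenic) and 16.88 (B6) on chow, with none called (lowest limma adjusted p 0.125). Of the 4 endothelial markers over the low-signal level, 3 were also lower in both strains. Their part in the liver values of Junb, Arc or the other genes was not tested.

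The difference of the diet effect between the tissues was tested directly and no gene passed, while 10 of 15466 probes did (0.0647%). Junb had the largest of the 8 genes tested, 2.67 ± 0.97 (SE, limma adjusted p = 0.259), and its 4 pairs were 0.44 (congenic) and 2.39 (B6) in hypothalamus, against -0.87 (congenic) and -1.64 (B6) in liver. It passed after median centring (2.71, limma adjusted p = 0.0422) and with the deposited values (3.96, limma adjusted p = 0.00264). Median centring called 3901 probes and the deposited values 10781, against 10 in the main fit. Junb did not pass under the other alternatives run on all 8 arrays. Without 1 array at a time its difference ran from 1.64 to 3.86. Arc followed with 1.91 ± 1.00 (SE, limma adjusted p = 0.382), and Nr4a3 had -0.65 ± 0.28 (SE, limma adjusted p = 0.32). Junb was not the only one of the 8 genes to pass under some alternative. Without 1 array at a time, Nr4a3 ran from -0.96 to -0.33 and passed in at least 1 such fit.

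The strain comparison within each tissue asks whether the chromosome 17 segment went with altered levels of the genes. Since the hypothalamus pair labelled chow went against its strain labels on the chromosome 17 genes, the hypothalamus values are given with and without it.

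In hypothalamus, limma called 0 of 19807 probes for strain (0%, 983 with an unadjusted p under 0.05) and none of the 9 genes, whose lowest adjusted p was 0.823. Of the 9 genes, 0 had an unadjusted p under 0.05. Junb was higher in the congenic pool of both diets, 1 of 9 against 24.4% of probes, and Fosb, Egr1 and Arc were lower in both, 3 of 9 against 25.1%. Fosb and Arc were below without overlap, 2 of 9 against 11.1%, while 0 of 9 were above without overlap, against 11.9%. The median of the 9 genes was -0.26, against -0.0019 over all probes. In the 2-choice pair alone, whose labels went with the liver pairs, the 9 genes were close between strains. Fos had 13.80 in congenic against 13.72 in B6, Egr1 12.52 against 12.55, Nr4a1 13.37 against 13.30 and Nr4a3 14.16 against 14.11. The largest of the 9 differences in that pair was 0.33, for Egr3. In the pair labelled chow the congenic minus B6 differences were -2.01 for Fosb, -3.24 for Egr3, -1.33 for Arc and 2.19 for Junb. Without that pair, the strain difference rests on 1 pair of pools and its error comes from liver alone. Egr3 was then under the low-signal level and was not tested. The largest difference of the genes still tested was -0.45, for Fosb.

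In liver, limma called 0 of 19807 probes for strain (0%, 1318 with an unadjusted p under 0.05) and none of the 8 genes. Of the 8 genes, 3 had an unadjusted p under 0.05, namely Fosb, Nr4a2 and Nr4a3. Egr1 and Nr4a2 were higher in congenic livers on both diets, 2 of 8 against 28.1% of probes, and Fosb, Egr3 and Nr4a3 were lower, 3 of 8 against 28.7%. All 5 did so without overlap, 2 against 16.5% and 3 against 18% of probes. The median of the 8 genes was -0.52, against 0.0069 over all probes.

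Nr4a3 had 14.94 (2-choice) and 14.41 (chow) in congenic livers, against 15.69 (2-choice) and 15.39 (chow) in B6 livers. The congenic pools lay under the B6 pools on both diets, by -0.75 with 2-choice and -0.98 on chow, a mean difference of -0.87 ± 0.20 (SE, limma adjusted p = 0.549, unadjusted p = 0.00272). In a fit on the 4 liver arrays alone, with 1 residual degree of freedom, the SE was 0.14 and the limma adjusted p 0.00422, and Nr4a3 was then the 1 gene of the 8 among 252 called probes (1.27%). The call thus depends on whether the error is pooled with hypothalamus.

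Fosb had 10.26 (2-choice) and 8.35 (chow) in congenic livers, against 11.07 (2-choice) and 11.16 (chow) in B6 livers, a difference of -1.81 ± 0.74 (SE, limma adjusted p = 0.739). Nr4a2 had 10.65 (2-choice) and 9.92 (chow) in congenic livers, against 8.97 (2-choice) and 9.20 (chow) in B6 livers, a difference of 1.20 ± 0.51 (SE, limma adjusted p = 0.749). Nr4a2 was thus higher and Nr4a3 lower in the congenic livers, while Nr4a1 went opposite ways on the 2 diets at -0.29 and 0.47. Egr3 had 8.20 (2-choice) and 9.18 (chow) in congenic livers, against 9.82 (2-choice) and 10.06 (chow) in B6 livers, a difference of -1.25 ± 0.86. Arc, at -1.14 ± 0.70, rested on the congenic 2-choice pool, with -2.46 on 2-choice and 0.19 on chow. No gene passed the test of the strain effect between tissues, nor did any probe (0% of 15466, 836 with an unadjusted p under 0.05; lowest limma adjusted p 0.796). Of the 8 genes tested, 0 had an unadjusted p under 0.05.

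**Figure D5:**
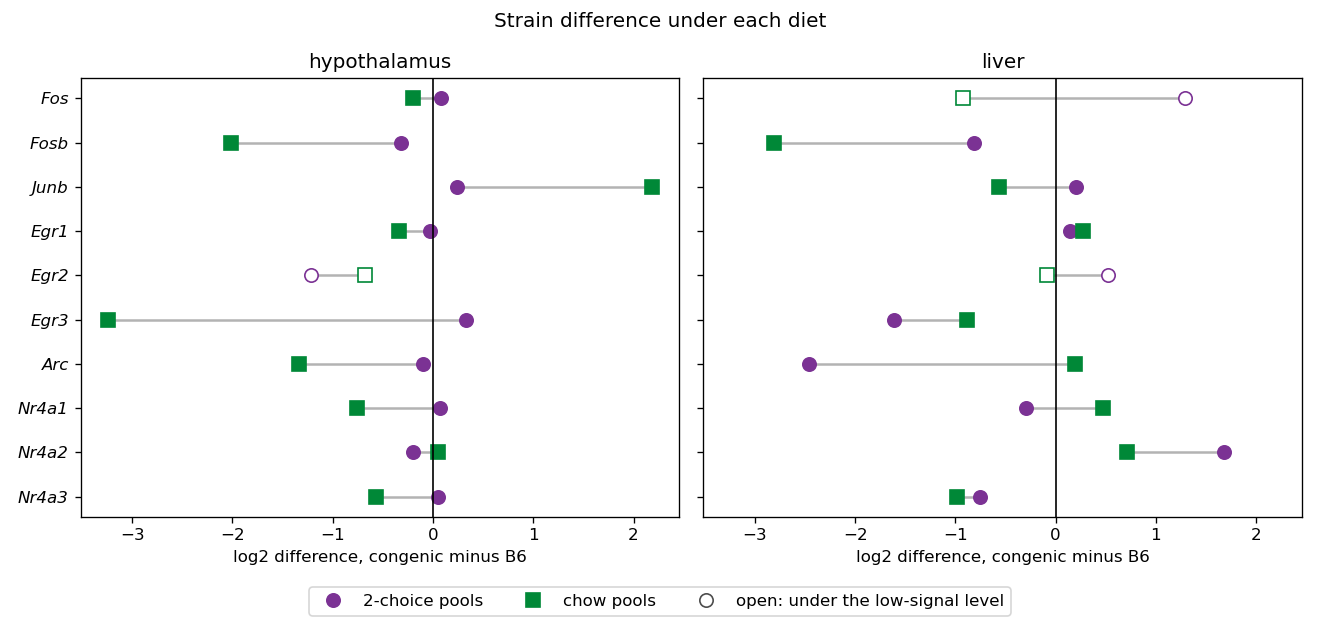
Congenic minus B6 difference in log2 intensity of the 10 genes on each diet and tissue, with open symbols for genes under the low-signal level. In the hypothalamus 2-choice pair the 9 genes tested lie within 0.33 of 0, while in the hypothalamus pair labelled chow Egr3 reaches -3.24 and Junb 2.19.

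Other genes of the same response were counted from 5 lists, covering other AP-1 subunits, other immediate early transcription factors, feedback regulators, effector genes and upstream kinases and factors. Of their 81 genes 68 had a probe, and 54 entered the hypothalamus test. For diet in hypothalamus 0 of these 54 were called by limma, 14 were higher and 12 lower in both strains, with a median of 0.15. Over all probes 0.49% were called, 33.6% were higher and 29.7% lower in both strains, and the median was 0.067. Among the genes with the largest same-sign differences of their lists was Bdnf, a neurotrophin gene that neuronal activity induces, with 11.07 (congenic) and 11.10 (B6) with 2-choice, against 8.30 (congenic) and 8.26 (B6) on chow. Its pairs were nearly equal, and the difference was 2.80 ± 0.71 (SE, limma adjusted p = 0.0985). Both Bdnf chow values were under the low-signal level, so Bdnf entered the test through its 2-choice values. Against that level the difference was at least 1.82. Dusp6, a phosphatase that turns off ERK, differed by 1.88 ± 0.43 and Ccn2, a matricellular protein gene, by 1.56 ± 0.35 (SE, limma adjusted p = 0.0812 and 0.0808). Creb1, the gene of a factor that binds the core motif shown above, differed by 1.03 ± 0.37 (SE, limma adjusted p = 0.169). The others so chosen were Prkaca (1.13), Bhlhe40 (0.91), Myc (0.69), Spry2 (-0.87), Batf (-0.72) and Jund (-0.44), with limma adjusted p from 0.174 to 0.624.

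For diet in liver, 55 genes of the lists were tested and 0 were called by limma, with 15 higher and 15 lower in both strains and a median of -0.025, against 29.3% higher and 30.9% lower and a median of -0.011 over all probes. The largest same-sign differences were those of Rps6ka5, a kinase gene of the MAP kinase cascade, and of Elk4, an SRF partner. They were 1.47 ± 0.80 and 1.19 ± 0.73 (SE, limma adjusted p = 0.637 and 0.682). Both Rps6ka5 chow values, 8.20 (congenic) and 8.42 (B6), were under the low-signal level, so it entered the test through its 2-choice values. Elk4 differed by 2.37 in the congenic pair and by only 0.0079 in the B6 pair. Gadd45g, a stress-inducible growth arrest gene, differed by 1.05 ± 0.19 (SE, limma adjusted p = 0.218), and Klf10 by 0.91 (limma adjusted p = 0.389). Batf3 (0.96), Ccn1 (0.96), Dusp6 (0.80), Dusp1 (0.40), Maff (-0.50) and Klf6 (-0.83) completed the list, with limma adjusted p from 0.63 to 0.892. For strain, 0 of the 54 genes in hypothalamus and 0 of the 55 in liver were called.

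The 10 genes did not share 1 profile over the arrays. After each tissue's mean was taken off, the distance of a gene's 8 values from the genes' median profile, as a root mean square, was smallest for Egr1 at 0.19 and largest for Egr3 at 0.99, on the log2 scale. It was 0.31 for Nr4a3, 0.34 for Nr4a1, 0.56 for Fos, 0.90 for Arc and 0.98 for Junb. Among 8180 other genes the median distance was 0.43, and the nearest were Col18a1 (0.0906), Aldh6a1 (0.0918), Lin7c (0.0991), Rap1b (0.101) and Mfsd14b (0.103). The distance also grows with a gene's own spread, so a gene that varies little can lie near the median profile without following it. The 8180 genes averaged over the low-signal level in both tissues, whereas the 10 genes include Fos and Egr2.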

How the data were processed

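The authors' deposited values are linear intensity per probe, 1 column per array; their background correction and scaling are unstated here, and no detection flag was used. Per the labels' protocols, 1 pool of total RNA per group was transcribed into digoxigenin-labelled cRNA. Groups came from the sample titles; some free-text descriptions name another strain, tissue or diet. The deposited intensity was taken to log2 and quantile normalized within each tissue (4 arrays), or over all 8 for the tissue difference. Effects of strain and diet within each tissue came from 1 fit of 8 arrays in R 4.3.3 with limma 3.58.1 (lmFit, eBayes with trend; 2 residual degrees of freedom), and the tissue difference from 4 pairs (3 residual degrees of freedom). P-values were adjusted by Benjamini-Hochberg over all probes tested, with a threshold of 0.05, and measure only the spread between these pools, which may be technical; the number of arrays limits the precision. The fits were tested on simulated data.

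The genes and lists were chosen with earlier results of these data known. Named were all members, called genes of the related lists or otherwise the few with the largest same-sign diet difference, and the 5 genes nearest in profile. Symbols came from the platform annotation, which can be old: 14411 probes have 1 symbol, 247 several and 18354 none. Alternatives were other scalings, filters, variance models and error terms, and leaving out each array or pair.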

Additional observations from a re-analysis of the deposited data

Results flagged for a closer look

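Junb stood out because its diet difference went one way in every hypothalamus pair and the opposite way in every liver pair. It averaged 1.41 in hypothalamus and -1.25 in liver (2-choice minus chow, log2), and the difference between the tissues was 2.67, which did not pass (limma adjusted p = 0.259). It passed after median centring (2.71, limma adjusted p = 0.0422) and with the deposited values (3.96, limma adjusted p = 0.00264). Median centring called 3901 probes and the deposited values 10781, against 10 in the main fit. Junb did not pass under the other alternatives run on all 8 arrays. Without 1 array at a time the difference ran from 1.64 to 3.86. Other genes of the 8 tested also passed for diet by tissue under some alternative. The hypothalamus value of 1.41 became 0.49 without the B6 chow array, where Junb was under the low-signal level. Egr1 stood out in the same manner for strain, at -0.18 in hypothalamus and 0.20 in liver (congenic minus B6, log2). Its hypothalamus pairs were -0.030 with 2-choice and -0.34 on chow. The chow pair is the one that went against its strain labels on the chromosome 17 genes. That difference of -0.39 did not pass either (limma adjusted p = 0.868).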

How the results depend on the processing

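The tissue calls of Fos (4.24 to 4.78), Nr4a1 (1.69 to 2.14) and Nr4a2 (1.99 to 2.61) kept their direction and passed under every alternative that has a test, while no other call of these genes held across scalings or error terms. For diet in hypothalamus the 97 called probes became 15430 with deposited values, 7633 after median centring, 202 with quantile normalization over 8 arrays, 43 with a 60th percentile filter, 753 from the tissue's arrays alone and 0 without the trend. Nr4a2 turned to 2.13 (deposited) and 0.87 (centred), and Nr4a3 to 1.95 and 0.69. The fit on a tissue alone called 639 probes for diet in liver, 252 for strain in liver and 21 for strain in hypothalamus. Strain in hypothalamus gave 1 call as deposited, 1 after centring, and 86 without the chow pair, where Fos (0.078), Nr4a1 (0.070) and Nr4a3 (0.045) turned positive. For diet by tissue, the 10 calls became 10781 (deposited), 3901 (centred), 0 (quantile over 8 arrays) and 0 (no trend). Deposited values turned Fosb to 0.81, Egr3 to 0.13, Nr4a1 to 1.67, Nr4a2 to 1.88 and Nr4a3 to 1.59 there, and centring turned Nr4a1 to 0.42, Nr4a2 to 0.63 and Nr4a3 to 0.34. Strain by tissue of Egr3 became 0.29 under both. The tissue difference had 5579 calls with deposited values, and centring turned its Egr3 to -0.20 and brought Nr4a3 to -1.16 (adjusted p = 0.00633). Without the trend Fosb passed for tissue (adjusted p = 0.049). Junb for diet by tissue passed with deposited values (3.96), after centring (2.71) and without the hypothalamus congenic chow array (3.86). It was not the only gene to pass there under some alternative. Raising values under the low-signal level to it, chosen after seeing the data, gave 4.10 for the tissue difference of Fos and -1.35 for both the diet and the strain difference of Egr3 in hypothalamus. Beyond the scaling shift and the smaller sets, the cause was not tested.

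Leaving out 1 array at a time, with the error then taken from the other tissue alone, gave 444 to 2418 calls for diet in hypothalamus, 9 to 31 for diet in liver, 38 to 904 for strain in hypothalamus and 6 to 26 for strain in liver. It gave 2 to 1520 for diet by tissue and 3 to 692 for strain by tissue. Signs turned for diet in hypothalamus in Fosb (-0.30 to 1.56), Egr3 (-3.55 to 0.29), Arc (-0.43 to 0.86), Nr4a1 (-0.12 to 0.72) and Nr4a3 (-0.54 to 0.086), and in liver in Fosb (-0.084 to 1.93) and Nr4a2 (-0.23 to 0.74). For strain they turned in hypothalamus in Fos (-0.20 to 0.076), Egr3 (-2.95 to 0.36), Nr4a1 (-0.77 to 0.070), Nr4a2 (-0.20 to 0.044) and Nr4a3 (-0.57 to 0.048), and in liver in Junb (-0.57 to 0.21), Arc (-2.49 to 0.19) and Nr4a1 (-0.29 to 0.47). Diet by tissue turned in Fosb (-1.36 to 0.66), Egr3 (-2.94 to 0.90) and Nr4a2 (-0.89 to 0.082), strain by tissue in Fosb (-0.35 to 1.62), Egr3 (-1.70 to 1.61) and Arc (-0.91 to 1.77), and the tissue difference, without 1 pair, in Egr3 (-0.076 to 0.57) and Arc (-0.22 to 1.15). Pairs were formed by strain and diet alone, and no block by replicate number was possible because each group had 1 pool and the labels give no such numbers. Egr3 passed for diet in hypothalamus without the congenic chow array (-3.55, limma adjusted p = 0.0249), a value that rests on the B6 chow pool alone. The mean over several probes of a gene was not run, since each gene had 1 probe. Signal near the low level limits Egr2 in both tissues, Fos in liver and Egr3 in hypothalamus, where 3 of 4 arrays were under it.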

Other observations

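Other genes of the immediate early response differed between the tissues in both directions, and over all probes limma called 25% higher and 24.1% lower in hypothalamus. Of 16 other immediate early transcription factor genes tested, limma called 4 higher and 9 lower. Egr4, the fourth Egr family member, was higher by 3.25, while Cebpb, a factor central to liver metabolism, was lower at -4.31 and Ier2 at -3.28 on the log2 scale. In liver 3 of the 4 values of Egr4, and likewise of Spry2, were under the low-signal level, and raised to it they left differences of 2.54 for Egr4 and 2.53 for Spry2. Of 10 feedback regulators, 2 were called higher (Rgs2 at 5.22, a G protein signalling regulator, and Spry2 at 3.28) and 6 lower, among them Zfp36 at -4.77, whose protein speeds decay of mRNAs with AU-rich elements. Of 11 effector genes, 3 were called in each direction, and of 15 upstream genes 4 were higher and 5 lower. Among 6 other AP-1 subunits, 0 were called higher and 1 lower.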
